A study of Mus musculus with 48 samples.

Results

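Cyp2b9, Cyp2b10 and Cyp2b13 are 3 cytochrome P450 genes of the Cyp2b subfamily, which lie beside each other on mouse chromosome 7. They were followed in the liver of mice that carry or lack hepatocyte p110α, on 2 diets and in 2 nutritional states. The members were chosen by name, with their values over all groups known from earlier work on these data. The array holds 4 probes with one of these names among 56605 non-control probes, 1 for Cyp2b9, 1 for Cyp2b13 and 2 for Cyp2b10. Each of the 4 passed the background filter, which asked for a signal well above background on 5 of 6 arrays in some group, so that all 3 genes are among the 20486 genes measured. Since they were chosen with their values known, their levels, differences and relations to each other are given as a description, with no p-value. Where it is said that a member passed the call used for all genes, that too is a description.

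The study asked how p110α, the catalytic subunit of phosphoinositide 3-kinase that the gene Pik3ca encodes, shapes the liver response to feeding, fasting and diet. Each of 48 male mice gave 1 one-colour array of liver RNA, with 6 mice in each of 8 groups. The p110αhep+/+ mice were floxed littermates without Cre. The p110αhep-/- mice carried the same floxed alleles and 1 albumin-Cre allele, whose promoter drives deletion in hepatocytes and leaves other liver cells out. All groups were of the C57Bl/6J background. Both genotypes received either a high-fat diet (HFD, 60% of calories from fat) or a control diet (CTRL) for 12 weeks, from 12 weeks of age. Mice were killed at ZT16, 16 h after lights on, either fed ad libitum or fasted for 24 h. RNA came from whole liver, so fewer cells of a type and less RNA per cell cannot be told apart.

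Between 52.3% and 59.3% of the spots of an array were well above background, and no spot was saturated. Each of the 6 slides held 1 array of every group, and slides were washed in 2 batches of 3. The Pik3ca probe lies downstream of the deleted exons and so does not check the deletion. Its log2 difference between p110αhep-/- and p110αhep+/+ mice was 0.39 ± 0.08 (SE) in fed mice on CTRL, 0.58 ± 0.08 in fed mice on HFD, 0.08 ± 0.08 in fasted mice on CTRL and 0.25 ± 0.08 in fasted mice on HFD. The 10 hepatocyte markers, Alb and Apoa1 among them, were all detected, and their summed signal lay between 1874280 and 2203040 on every array. Quantile normalization holds the brightest signals at nearly the same values on all arrays, so this range does not show a constant hepatocyte content.

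CYP2B enzymes oxidise drugs, steroids and other lipophilic compounds in the endoplasmic reticulum of hepatocytes. Their genes are the standard readout of the constitutive androstane receptor (CAR, gene Nr1i3), a nuclear receptor that chaperones hold in the cytoplasm, that epidermal growth factor receptor signalling keeps there, and that pairs with the retinoid X receptor once it enters the nucleus. Cyp2b10 is the classical phenobarbital-induced gene of mouse liver, whereas Cyp2b9 and Cyp2b13 are known as genes more highly expressed in female than in male mouse liver under the sex-specific pattern of growth hormone.

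The 4 probes read different stretches of these related transcripts, and 30 of the 60 bases of each are shown because the probes of Cyp2b9 and Cyp2b10 gave nearly the same pattern. Capitals mark the longest run of bases that the whole probes of Cyp2b9 and of Cyp2b10 probe A have in common, 10 bases, and the other pairs of probes have at most 7 bases in a row in common. The 2 Cyp2b10 probes are named A and B and start at base 1756 (A) and base 1094 (B) of the transcript.
Cyp2b10 probe A, last 30 bases: gtgctaatggactctgtaTAAGGTCTGAat
Cyp2b9 probe, first 30 bases: TAAGGTCTGAtttctatgtctacagacttg
Cyp2b13 probe, first 30 bases: agagctgctggaaactagactgtatgttgc
Cyp2b10 probe B, first 30 bases: tcagagattttcagatcttatacctattgg
In mm9, the build of the scanner files, the 2 Cyp2b10 probes lie at chr7:26711522-26711581 (A) and chr7:26702056-26702115 (B), the Cyp2b13 probe at chr7:26880905-26880964 and the Cyp2b9 probe at chr7:26995607-26995666. The array's own annotation lists transcripts of both Cyp2b9 and Cyp2b10 for the Cyp2b9 probe. Whether that probe also binds Cyp2b10 transcripts was not tested, and the Cyp2b9 signal is uncertain to that extent. For Cyp2b10 probe A the annotation lists Cyp2b10 alone. Its signal over the 48 mice was closer to that of Cyp2b9 (r = 0.999) than to that of probe B (r = 0.686). Whether probe A also binds Cyp2b9 transcripts was not tested either, so the Cyp2b10 differences of probe A carry the same doubt.

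The start regions of the genes are shown because the 3 genes moved together with diet. They come from RefSeq on GRCm38.p6 (plus strand), which held a 300-base window, from 250 bases before to 50 bases after the start, for all 3 genes; the 250 bases before the start are printed. Capitals mark AGGTCA, the half-site to which nuclear receptors such as CAR can bind.
Cyp2b10, chr7:25897408-25897657: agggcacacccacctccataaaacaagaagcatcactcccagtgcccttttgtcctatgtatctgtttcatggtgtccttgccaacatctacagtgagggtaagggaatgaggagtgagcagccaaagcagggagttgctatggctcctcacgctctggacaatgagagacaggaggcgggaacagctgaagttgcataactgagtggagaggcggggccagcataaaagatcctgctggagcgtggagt
Cyp2b13, chr7:26061245-26061494: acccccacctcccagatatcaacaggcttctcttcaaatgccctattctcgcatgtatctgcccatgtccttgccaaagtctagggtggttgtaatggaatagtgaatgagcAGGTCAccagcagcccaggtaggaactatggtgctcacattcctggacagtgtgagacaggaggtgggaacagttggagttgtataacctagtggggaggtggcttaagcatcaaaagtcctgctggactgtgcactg
The windows of Cyp2b13 and Cyp2b9 (chr7:26173159-26173408) were identical at 298 of 300 positions. They differed by C48T and T104C, with the Cyp2b13 base first and positions counted from the first base of the window. Each of them matched the Cyp2b10 window at 71.7% of alignment columns. Searched on both strands, AGGTCA was found at -138 from the start in Cyp2b13 and Cyp2b9 and not in the Cyp2b10 window, while 16.2% of 32544 mouse windows of this length hold it. The TATA box letters TATAAA, in 13.6% of windows, were not found in any of the 3. Neither was TTCNNNGAA, a STAT motif held by 8.33% of windows. The FOXO motif GTAAACA, in 3.66% of windows, was also not found. The motifs were chosen with the sequences in view. The phenobarbital-responsive enhancer of Cyp2b10 lies further upstream than these windows, and a match or its absence here says nothing of binding.

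Signals are given below as log2 of the normalized median spot signal, with the lowest, the median and the highest of the 6 mice of a group. Levels of different probes cannot be set against each other. A difference is the log2 difference of group means in the limma fit of all arrays with its standard error (SE). The fit weights the arrays, so that a difference can depart from that of the plain means, most of all in the fed p110αhep-/- mice on HFD.

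For Cyp2b10 (probe A), fed p110αhep+/+ mice had a lowest, median and highest log2 signal of 8.96, 11.05 and 13.50 on CTRL and of 14.51, 14.63 and 14.83 on HFD. Fed p110αhep-/- mice had 9.02, 10.95 and 12.77 on CTRL and 11.68, 14.59 and 14.98 on HFD. All 6 fed p110αhep+/+ mice on HFD lay above all mice on CTRL, and on HFD they lay within a far narrower range (SD 0.14 against 1.53). Among fed p110αhep-/- mice on HFD, replicate 3 (11.68) was the only one that fell within the range of the CTRL group. Its array had the lowest weight of the 48 in the fit (0.349, range 0.349 to 1.71), with 56.3% of spots well above background. The other 5 mice of that group ranged from 13.87 upwards, with a mean of 14.58 ± 0.43 (SD, n = 5) against 14.10 ± 1.25 (SD, n = 6) with it.

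After a 24 h fast, Cyp2b10 (probe A) ranged from 8.90 to 12.37 (median 10.54) in p110αhep+/+ mice on CTRL and from 13.53 to 14.71 (median 14.22) on HFD. In fasted p110αhep-/- mice it ranged from 9.42 to 12.47 (median 11.36) on CTRL and from 13.01 to 14.35 (median 13.88) on HFD. The diets did not overlap in fasted mice of either genotype. The probe was well above background on all 6 arrays of every group.

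Cyp2b9 followed the same course. In fed p110αhep+/+ mice, its lowest, median and highest log2 signals were 8.86, 11.45 and 14.01 on CTRL and 15.04, 15.18 and 15.45 on HFD. In fed p110αhep-/- mice they were 9.50, 11.45 and 13.18 on CTRL and 12.23, 15.16 and 15.48 on HFD. Again p110αhep-/- HFD replicate 3 (12.23) was the only fed mouse on HFD within the range of its CTRL group, and without it the lowest was 14.36. Fasted p110αhep+/+ mice had 9.15, 10.98 and 12.84 on CTRL and 13.99, 14.77 and 15.09 on HFD. Fasted p110αhep-/- mice had 9.87, 11.79 and 13.08 on CTRL and 13.54, 14.33 and 14.94 on HFD. There was no overlap between diets in the fasted mice, and the probe was well above background on every array.

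Cyp2b13 differed from both in that it was at or near background on CTRL. In fed p110αhep+/+ mice its log2 signal had a lowest, median and highest value of 5.45, 6.07 and 7.64 on CTRL, well above background on 5 of 6 arrays, and of 10.93, 11.78 and 12.23 on HFD. In fed p110αhep-/- mice the values were 5.06, 5.67 and 6.38 on CTRL, above background on 2 of 6 arrays, and 6.28, 12.32 and 13.00 on HFD. On HFD the probe was above background on all arrays of every group. The spread on HFD was large in fed p110αhep-/- mice (SD 2.78), where replicate 3 was at 6.28 and the next lowest mouse at 8.45. Fasted p110αhep+/+ mice had 5.21, 5.74 and 6.49 on CTRL (above background on 2 of 6 arrays) and 8.87, 11.11 and 12.61 on HFD. Fasted p110αhep-/- mice had 5.41, 5.85 and 6.07 on CTRL (above background on 4 of 6 arrays) and 7.30, 9.83 and 12.43 on HFD. The diets did not overlap except in fed p110αhep-/- mice, through replicate 3.

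**Figure D1:**
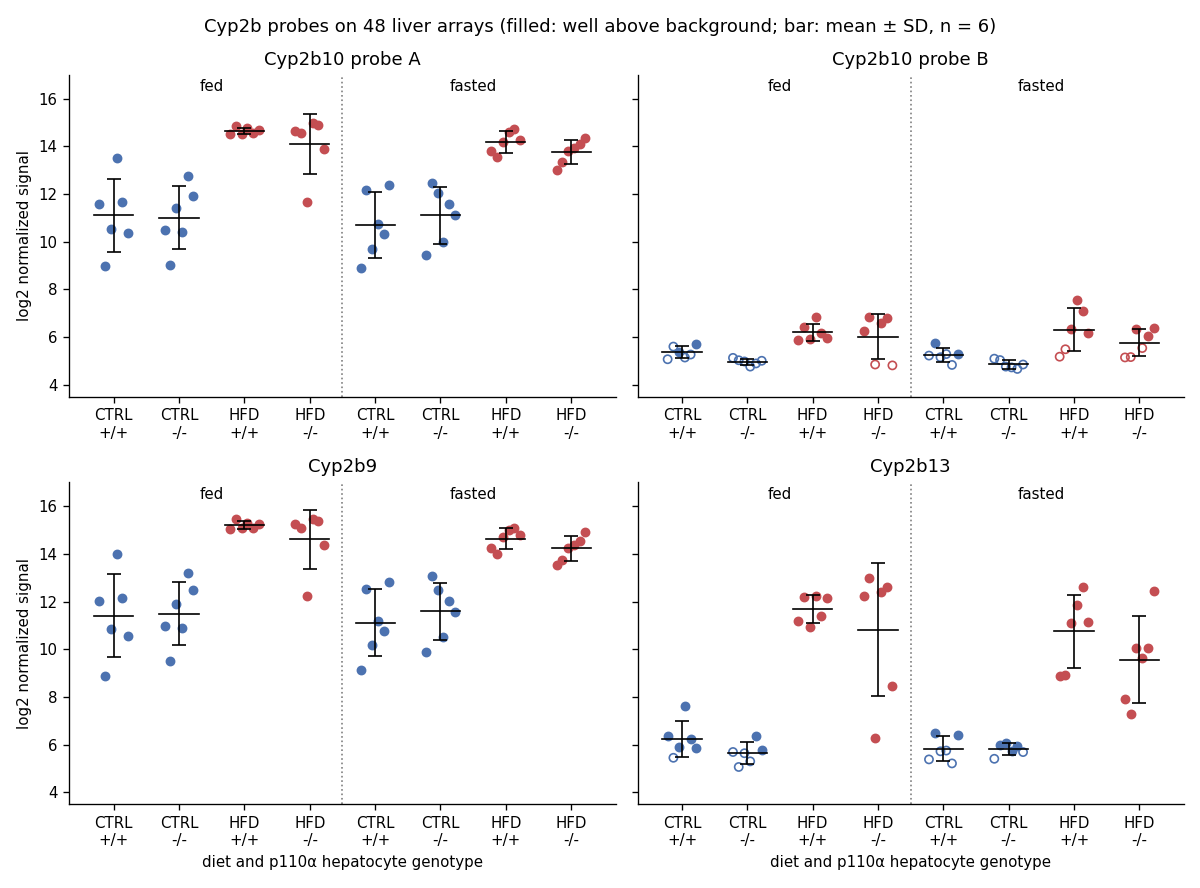
Log2 normalized signal (y axis) of the 4 Cyp2b probes in each mouse of the 8 groups of genotype, diet and nutritional state (x axis), with the mean and SD of each group; filled points are well above background on their array. The fed p110αhep+/+ mice on HFD sit between 14.51 and 14.83 for Cyp2b10 (probe A), and replicate 3 of the fed p110αhep-/- mice on HFD lies apart at 11.68.

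In order of the group mean, the 4 HFD groups of Cyp2b10 (probe A) stood above the 4 CTRL groups, with fed p110αhep+/+ mice on HFD highest (14.65 ± 0.14, SD, n = 6) and fasted p110αhep+/+ mice on CTRL lowest (10.70 ± 1.37, SD, n = 6). Between these, fasted p110αhep+/+ mice on HFD (14.18 ± 0.46) and fed p110αhep-/- mice on HFD (14.10 ± 1.25) were followed by fasted p110αhep-/- mice on HFD (13.76 ± 0.50), and these neighbours overlapped. The 3 other CTRL groups had means from 11.01 to 11.10 with SDs of 1.19 to 1.53 and overlapped throughout. Cyp2b9 and Cyp2b13 also had their 4 highest means on HFD and their 4 lowest on CTRL, with Cyp2b13 at 11.68 ± 0.58 in fed p110αhep+/+ mice on HFD and at 5.64 ± 0.45 in fed p110αhep-/- mice on CTRL.

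The difference between HFD and CTRL was largest for Cyp2b13, as a log2 difference. In fed p110αhep+/+ mice it was 3.53 ± 0.52 (SE) for Cyp2b10 (probe A), 3.75 ± 0.54 for Cyp2b9 and 5.58 ± 0.62 for Cyp2b13, or 11.5-fold, 13.4-fold and 47.7-fold. In fed p110αhep-/- mice it was 3.25 ± 0.57, 3.29 ± 0.59 and 5.86 ± 0.68 for the same probes. In fasted p110αhep+/+ mice the values were 3.52 ± 0.52, 3.57 ± 0.55 and 4.91 ± 0.62. The Cyp2b13 values rest on dim CTRL signals, with 5, 2, 2 and 4 of 6 CTRL arrays above background in fed p110αhep+/+, fed p110αhep-/-, fasted p110αhep+/+ and fasted p110αhep-/- mice. With the CTRL arrays that were not above background raised to the lowest signal that was, the plain means of Cyp2b13 differed by at least 5.42, 5.15, 4.89 and 3.76 in the same order. Fasted p110αhep-/- mice had the smallest differences in the fit, 2.72 ± 0.56, 2.70 ± 0.59 and 3.59 ± 0.67, which is 6.58-fold, 6.49-fold and 12.1-fold. The size of the Cyp2b13 difference depended on the processing. With the scanner's processed signal, an alternative that changes both signal and scaling, it was 6.57 in fed and 6.64 in fasted p110αhep+/+ mice. In p110αhep-/- mice it was then 7.48 fed and 5.04 fasted. Whether the signal or the scaling moved these values was not tested. All 3 genes passed the call used for all genes (adjusted p of at most 0.05 in limma and a fold change over 1.5) in each of the 4 comparisons, whereas that call took 3.71% of all genes in fed p110αhep+/+ mice, 2.34% in fed p110αhep-/- mice, 2.82% in fasted p110αhep+/+ mice and 1.89% in fasted p110αhep-/- mice. Nothing is read from that count. The share of all genes with every mouse on HFD above every mouse on CTRL was 5.52%, 1.71%, 3.57% and 2.14% in the same order.

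Within each washing batch, 3 mice against 3 in signals from which the batch had not been removed, the direction was the same for all 3 genes in all 4 comparisons. For Cyp2b10 (probe A) the log2 differences lay between 2.52 and 4.09, for Cyp2b9 between 2.56 and 4.19, and for Cyp2b13 between 3.34 and 6.80. The extremes of Cyp2b13 in fed p110αhep-/- mice were 6.80 in the first batch and 3.63 in the second, which holds replicate 3; without that mouse the second was 5.09. In fasted p110αhep+/+ mice on CTRL, Cyp2b10 (probe A) averaged 9.57 in the first batch and 11.81 in the second in these signals.

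**Figure D2:**
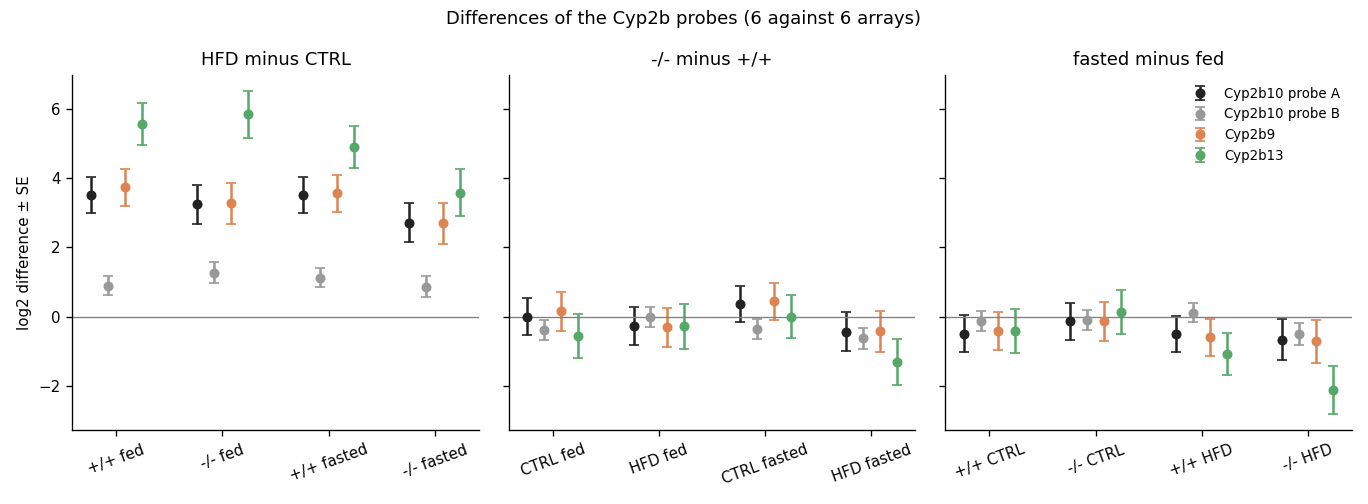
Log2 difference ± SE (y axis) of the Cyp2b probes for HFD against CTRL, for p110αhep-/- against p110αhep+/+ and for fasted against fed mice, in each setting (x axis). The HFD differences of Cyp2b13 reach 5.86, while the genotype differences of Cyp2b9 and of Cyp2b10 (probe A) stay between -0.44 and 0.44.

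Differences between genotypes ranged from -1.32 to 0.44 on the log2 scale for these 3 probes. The log2 difference between p110αhep-/- and p110αhep+/+ mice was -0.0012 ± 0.55 for Cyp2b10 (probe A) in fed mice on CTRL, -0.28 ± 0.55 in fed mice on HFD, 0.36 ± 0.52 in fasted mice on CTRL and -0.44 ± 0.56 in fasted mice on HFD. Cyp2b9 had 0.15, -0.31, 0.44 and -0.43 in the same order. Cyp2b13 had -0.56, -0.28, -0.0024 and -1.32 ± 0.67. The genotypes overlapped for each gene in each of these settings. None of the 3 genes passed the call in any of them, although the difference of Cyp2b13 in fasted mice on HFD passed in 2 of 12 fits that left out 1 mouse (fasted p110αhep+/+ replicate 2 or p110αhep-/- replicate 6). The call took 3.73% of all genes in fed mice on CTRL, 6.23% in fed mice on HFD, 3.23% in fasted mice on CTRL and 6.56% in fasted mice on HFD. Within batches the sign of some of these differences turned, as for Cyp2b13 in fed mice on HFD (0.56 and -2.23, the latter -0.76 without replicate 3).

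The diet difference itself was set against genotype. In fed mice, the HFD difference of p110αhep-/- minus that of p110αhep+/+ mice was -0.28 ± 0.77 (SE, log2) for Cyp2b10 (probe A), -0.46 ± 0.80 for Cyp2b9 and 0.28 ± 0.92 for Cyp2b13. In fasted mice it was -0.80 ± 0.77, -0.87 ± 0.80 and -1.32 ± 0.91. None of them passed the call, which took 1.4% of all genes for this difference in fed and 1.88% in fasted mice. All 6 values lie within 2 SE of 0, and the SEs leave room for differences between genotypes of over 1 on the log2 scale.

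The mean of each of the 3 genes was lower in fasted than in fed mice on HFD over all 6 mice, though not in each washing batch. The log2 difference of fasted minus fed mice for Cyp2b10 (probe A) was -0.50, -0.14, -0.50 and -0.67 in p110αhep+/+ mice on CTRL, p110αhep-/- mice on CTRL, p110αhep+/+ mice on HFD and p110αhep-/- mice on HFD. For Cyp2b9 it was -0.42, -0.14, -0.60 and -0.72. The values for Cyp2b13 were -0.42, 0.14, -1.09 ± 0.61 and -2.13 ± 0.70. The last, 4.37-fold lower after fasting, was the only one of the 12 to pass the call, which took 5.46%, 7.08%, 4.72% and 5.9% of all genes in these settings. It passed in 8 of 12 fits that left out 1 mouse, and not without fed p110αhep-/- HFD replicate 2 or 5 or without fasted p110αhep-/- HFD replicate 1 or 2. It was also lost in 3 of 10 other settings, with the processed signal, with no filter on dim probes and without array weights, where the difference was -1.26. Within the first washing batch it was -3.46, and within the second it was 0.89 with and -0.57 without fed p110αhep-/- HFD replicate 3. In the second batch the fasting difference in p110αhep-/- mice on HFD was also above 0 for Cyp2b10 (probe A) and Cyp2b9 with that mouse (0.35 each) and below 0 without it (-0.49 and -0.48). Also above 0 in that batch was the fasting difference of Cyp2b13 in p110αhep+/+ mice on HFD (0.35). The fed and fasted groups overlapped.

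The second Cyp2b10 probe, B, was dim and gave smaller differences. It passed the background filter only through fed p110αhep+/+ mice on HFD, where it was high, so its differences are no support for those of probe A. Its log2 signal ranged from 5.07 to 5.71 in fed p110αhep+/+ mice on CTRL (well above background on 2 of 6 arrays) and from 5.86 to 6.83 on HFD (6 of 6). In fed p110αhep-/- mice it was above background on 0 of 6 arrays on CTRL (4.76 to 5.12) and on 4 of 6 on HFD (4.81 to 6.82). After fasting it was above background on 2 of 6 CTRL and 4 of 6 HFD arrays of p110αhep+/+ mice (4.83 to 5.74 and 5.17 to 7.54), and on 0 of 6 and 3 of 6 arrays of p110αhep-/- mice (4.66 to 5.09 and 5.14 to 6.36). The fitted HFD difference was 0.90 ± 0.28 (log2) in fed and 1.13 ± 0.28 in fasted p110αhep+/+ mice. With the CTRL arrays that were not above background raised as for Cyp2b13, the plain means differed by at least 0.72 and 0.87. In p110αhep-/- mice, whose CTRL level is only bounded by the dimmest signal above background, HFD was at least 1.65-fold higher in fed and at least 1.30-fold higher in fasted mice. In fasted p110αhep-/- mice the probe did not pass the call, but it passed in 5 of 11 alternative settings, among them the slide and the replicate number as a block, and in 2 of 12 fits that left out 1 mouse.

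Across the 48 mice, the probes of Cyp2b10 (probe A) and Cyp2b9 had a Pearson r of 0.999, which holds the diet difference as well as differences between mice. The r with Cyp2b13 was 0.902 for Cyp2b10 (probe A) and 0.897 for Cyp2b9. Probe B of Cyp2b10 was closer to Cyp2b13 (r = 0.871) than to the other probe of its own gene (0.686) or to Cyp2b9 (0.669). These values are descriptions over points that share diet, slides and processing.

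With the group means subtracted, the deviations of the 48 mice were compared in the same way, as a description. The deviations of Cyp2b10 (probe A) and Cyp2b9 had r = 0.997 and Spearman's rho = 0.996. Cyp2b13 followed with r = 0.620 and rho = 0.796 against Cyp2b10 and r = 0.610 and rho = 0.784 against Cyp2b9. Without the 2 mice farthest from the median on the x axis, r was 0.998, 0.641 and 0.640. Within the first washing batch r was 0.998, 0.584 and 0.587, and within the second 0.998, 0.662 and 0.666. In mice on one diet, Cyp2b13 had r = 0.891 with Cyp2b10 (probe A) on CTRL and 0.904 on HFD. The deviations of Cyp2b13 were small on CTRL, where the group ranges of Cyp2b10 spanned 8.90 to 13.50 and those of Cyp2b13 5.06 to 7.64.

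CAR itself (Nr1i3) changed little with diet. Its lowest, median and highest log2 signals were 11.26, 11.57 and 11.78 in fed p110αhep+/+ mice on CTRL and 11.51, 11.83 and 11.97 on HFD. In fed p110αhep-/- mice they were 11.47, 11.65 and 11.84 on CTRL and 10.90, 12.08 and 12.30 on HFD, where replicate 3 had the 10.90. The Nr1i3 difference of HFD against CTRL was 0.24 ± 0.10 (limma, adjusted p = 0.084) in fed p110αhep+/+ mice, 0.36 ± 0.11 (adjusted p = 0.0292) in fed p110αhep-/- mice, 0.25 ± 0.10 (adjusted p = 0.0945) in fasted p110αhep+/+ mice and 0.36 ± 0.11 (adjusted p = 0.0315) in fasted p110αhep-/- mice. Each of these was below the 1.5-fold threshold. On HFD, Nr1i3 was higher in fasted than in fed mice, by 0.51 ± 0.10 (limma, adjusted p = 0.000166) in p110αhep+/+ mice. In p110αhep-/- mice on HFD it was higher by 0.50 ± 0.12 (adjusted p = 0.00126). Both were also below 1.5-fold, and the means of Cyp2b10 (probe A), Cyp2b9 and Cyp2b13 were lower in the same comparisons.

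The members were chosen with their values known, so the p-values with Nr1i3 are a description. The 3 pairs are not independent, since the deviations of Cyp2b10 (probe A) and Cyp2b9 had r = 0.997. Deviations of Nr1i3 within groups were compared with those of the members over all 48 mice. They had r = 0.521 and rho = 0.458 with Cyp2b10 (probe A; 2-sided permutation test within groups, 100000 draws, p = 0.00155 for r and 0.0035 for rho after adjustment over the 3 pairs with Nr1i3), r = 0.515 with Cyp2b9 (rho = 0.453; permutation adjusted p = 0.00155 for r) and r = 0.665 with Cyp2b13 (rho = 0.532; permutation adjusted p = 0.00078 for r). Without the 2 mice farthest from the median, r fell to 0.367, 0.373 and 0.376 (permutation adjusted p = 0.0307 for each). Without fed p110αhep-/- HFD replicate 3 alone it was 0.379, 0.388 and 0.438 (permutation adjusted p = 0.02, 0.02 and 0.00861). Within the first washing batch r was 0.357, 0.375 and 0.170 (permutation adjusted p = 0.481, 0.481 and 0.551) with rho = 0.030, 0.089 and 0.178, below the values over all mice, and within the second, which holds replicate 3, it was 0.513, 0.514 and 0.709 (0.0838 for each), close to the values over all mice. Without replicate 3 the second batch had r = 0.237, 0.245 and 0.489 (permutation adjusted p = 0.350, 0.350 and 0.292). Neither batch of 24 mice passed the threshold on its own. On CTRL alone it was 0.414, 0.429 and 0.358 (permutation adjusted p = 0.104, 0.104 and 0.137), and on HFD alone 0.835, 0.834 and 0.743 (0.00364 for each) with fed p110αhep-/- HFD replicate 3 and 0.454, 0.460 and 0.548 (0.0437, 0.0437 and 0.0333) without it.

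**Figure D3:**
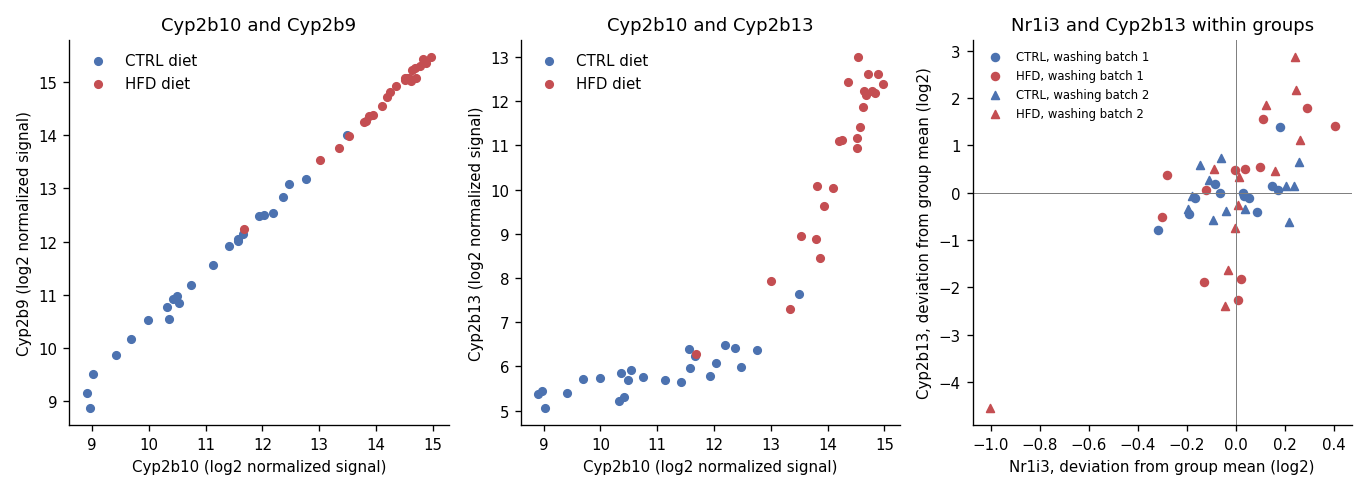
Log2 normalized signal of each mouse for Cyp2b10 (probe A, x axis) against Cyp2b9 and against Cyp2b13 (y axis), and, in the last panel, the log2 deviation of each mouse from its group mean for Nr1i3 (x axis) against Cyp2b13 (y axis), with diets by colour and the 2 washing batches by shape. Cyp2b10 and Cyp2b9 lie close to a line (r = 0.999), and replicate 3 of the fed p110αhep-/- mice on HFD, whose Nr1i3 lies 1.00 below its group mean, is the leftmost and lowest point of the last panel.

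All 27 genes of a list of CAR, its dimer partner, related receptors, chaperones and coregulators were measured. In fed p110αhep+/+ mice, HFD lowered 3 and raised 0 of them, where 1.08% of all genes fell and 2.63% rose, and 2 of the 3 are described here. Egfr, the receptor whose signalling keeps CAR in the cytoplasm, fell by 1.55 ± 0.27 on the log2 scale (limma, adjusted p = 4.37e-05). The liver forkhead factor Foxa3 fell by 0.72 ± 0.10 (adjusted p = 7.99e-07). None of the 27 passed the call with HFD in the other 3 settings. Deletion of p110α raised Egfr by 0.89 ± 0.29 (adjusted p = 0.0237) in fed mice on CTRL, by 1.73 ± 0.29 (adjusted p = 8.57e-06) in fed mice on HFD and by 0.78 ± 0.30 (adjusted p = 0.0359) in fasted mice on HFD; the last was lost in 6 of 12 fits that left out 1 mouse. Foxa3 was 0.88 ± 0.11 higher in fed p110αhep-/- than p110αhep+/+ mice on HFD (adjusted p = 1.27e-08), as was the coactivator gene Ppargc1a (0.61 ± 0.15, adjusted p = 0.00133). The pregnane X receptor Nr1i2, the retinoid X receptor Rxra and Foxo1, a transcription factor restrained by insulin signalling, did not pass the call in any comparison of diet or genotype. P450 reductase (Por), which passes electrons to all microsomal P450 enzymes, was higher in p110αhep-/- mice on HFD, by 0.75 ± 0.13 fed (adjusted p = 1.3e-05) and 0.64 ± 0.13 fasted (adjusted p = 0.000155), and did not pass with diet.

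Other genes that CAR agonists are known to induce were counted next. Of 48 listed, 43 were measured, and no rise with HFD among them was over 1.44 on the log2 scale. With HFD, 7 rose and 1 fell in fed p110αhep+/+ mice, 3 rose and 1 fell in fed p110αhep-/- mice, 5 rose and 1 fell in fasted p110αhep+/+ mice, and 11 rose and 0 fell in fasted p110αhep-/- mice. Over all genes, 2.63%, 1.3%, 1.82% and 0.927% rose and 1.08%, 1.04%, 0.996% and 0.967% fell with HFD in the same order. Other processing moved this split. In fed p110αhep+/+ mice 4 rose and 2 fell with median scaling. There 5 rose and 2 fell with the processed signal, an alternative that changes both signal and scaling. In fed p110αhep-/- mice 3 rose and 0 fell with median scaling, and in fasted p110αhep+/+ mice 5 rose and 2 fell with the processed signal. Their median log2 differences were 0.17, 0.11, 0.16 and 0.23, where the medians over all genes lay between -0.02 and -0.0004. Within each washing batch the list medians were above 0 in all 4 settings.

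At most 4 rises and 4 falls of the list are named in each setting, the largest among the genes called. In fed p110αhep+/+ mice, the glutathione transferase genes Gstm2 (1.44 ± 0.16, limma adjusted p = 1.19e-08) and Gsta2 (1.04 ± 0.30, adjusted p = 0.0109, lost without CTRL replicate 5), the epoxide hydrolase gene Ephx1 (0.81 ± 0.11) and the efflux pump gene Abcb1a (0.76 ± 0.19) rose. The secreted trefoil peptide gene Tff3 fell by 2.26 ± 0.54 (adjusted p = 0.00197). Fed p110αhep-/- mice had higher Cyp3a11 (1.11 ± 0.27, adjusted p = 0.00434), the xenobiotic-metabolising P450 of the Cyp3a family, Abcc3 (0.90 ± 0.14, adjusted p = 1.25e-05), a conjugate exporter, and Cyp2c37 (0.69 ± 0.15, adjusted p = 0.00145) on HFD, while Akr1b7 was lower (-0.60 ± 0.17, adjusted p = 0.0138). In fasted p110αhep+/+ mice the 4 largest rises were those of Gstm2 (1.25 ± 0.16), Gstm3 (0.89 ± 0.13), Gstm4 (0.88 ± 0.14) and Gstm1 (0.87 ± 0.13), and Tff3 fell by 1.78 ± 0.55 (adjusted p = 0.0227), a call lost with no filter on dim probes, without array weights and without CTRL replicate 4 or HFD replicate 3 or 4. Fasted p110αhep-/- mice had rises of the estrogen sulfotransferase gene Sult1e1 (1.21 ± 0.30, adjusted p = 0.00639), Cyp2a4 (1.17 ± 0.17, adjusted p = 7.69e-06), Cyp1a2 (1.02 ± 0.16, adjusted p = 2.07e-05) and Sult1d1 (0.85 ± 0.17, adjusted p = 0.000491).

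Genotype differences passed the call for several genes of the list. Deletion of p110α raised 9 and lowered 4 of the 43 in fed mice on CTRL, 11 and 9 in fed mice on HFD, 2 and 5 in fasted mice on CTRL, and 11 and 7 in fasted mice on HFD. Over all genes it raised 1.53%, 2.21%, 1.33% and 2.33% and lowered 2.2%, 4.02%, 1.9% and 4.23% in the same order. Aldh1a7, a cytosolic aldehyde dehydrogenase gene, was lower in all 4 settings, with log2 differences of -1.43 ± 0.13 (fed, CTRL), -1.35 ± 0.13 (fed, HFD), -1.35 ± 0.12 (fasted, CTRL) and -2.18 ± 0.13 (fasted, HFD). Tff3 was higher in all 4, by 2.01 ± 0.57, 3.71 ± 0.57, 2.92 ± 0.55 and 3.45 ± 0.59. In fed p110αhep-/- mice the P450 gene Cyp2c54 was higher by 0.92 ± 0.15 on CTRL and 1.36 ± 0.15 on HFD. Cyp1a2 (0.59 ± 0.15 and 1.31 ± 0.15) and Cyp2c37 (0.80 ± 0.15 and 1.23 ± 0.15) were also higher in these mice. Gstm2 was lower in p110αhep-/- mice on HFD, by differences of -1.56 ± 0.17 in fed and -1.42 ± 0.18 in fasted mice, and its HFD difference depended on genotype in fed mice (difference of -1.76 ± 0.24, adjusted p = 3.88e-05). Fasting raised 7 and lowered 4 of the 43 in p110αhep+/+ mice on CTRL, 5 and 6 in p110αhep-/- mice on CTRL, 7 and 1 in p110αhep+/+ mice on HFD, and 6 and 3 in p110αhep-/- mice on HFD, where 2.93%, 3.65%, 2.25% and 2.75% of all genes rose and 2.52%, 3.43%, 2.47% and 3.15% fell.

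Since Cyp2b9 and Cyp2b13 are known as female-predominant genes and all these mice were male, other sex-biased genes were counted. Of 29 female-predominant genes without the members, 24 were measured. With HFD, 8 rose and 1 fell in fed p110αhep+/+ mice, 9 rose and 4 fell in fed p110αhep-/- mice, 4 rose and 0 fell in fasted p110αhep+/+ mice, and 8 rose and 1 fell in fasted p110αhep-/- mice, with medians of 0.35, 0.32, 0.13 and 0.35. Of all genes, 2.63%, 1.3%, 1.82% and 0.927% rose and 1.08%, 1.04%, 0.996% and 0.967% fell in these settings. In fasted p110αhep+/+ mice, 5 rose and 1 fell with median scaling and 4 rose and 2 fell with the processed signal. Hao2, a peroxisomal 2-hydroxyacid oxidase gene, rose by 2.64 ± 0.28 (limma, adjusted p = 5.02e-09) in fed p110αhep+/+, 1.55 ± 0.31 (adjusted p = 0.000508) in fed p110αhep-/- and 1.76 ± 0.29 (adjusted p = 3.05e-05) in fasted p110αhep+/+ mice. The lipoprotein receptor gene Vldlr rose in all 4 settings, by 1.75 ± 0.25, 1.01 ± 0.27 (lost without fed p110αhep-/- HFD replicate 2), 1.53 ± 0.25 and 1.32 ± 0.27, and so did the fatty acid translocase gene Cd36, by 1.11 ± 0.23, 2.36 ± 0.26, 1.05 ± 0.24 and 1.94 ± 0.25. Lifr fell by 1.26 ± 0.18 in fed p110αhep+/+ and by 0.99 ± 0.20 in fed p110αhep-/- mice.

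Of 34 male-predominant genes, 33 were measured. HFD lowered 16 and raised 0 of them in fed p110αhep+/+ mice, lowered 7 and raised 0 in fed p110αhep-/- mice and in fasted p110αhep+/+ mice, and lowered 2 and raised 2 in fasted p110αhep-/- mice. Over all genes HFD lowered 1.08%, 1.04%, 0.996% and 0.967% in fed p110αhep+/+, fed p110αhep-/-, fasted p110αhep+/+ and fasted p110αhep-/- mice. The number of male-predominant genes called was 2 to 8 in fed p110αhep-/- mice when 1 mouse was left out (2 without HFD replicate 5) and 3 with no filter on dim probes, and it was 11 in fasted p110αhep+/+ mice with median scaling or the processed signal. The medians were -0.74, -0.32, -0.24 and -0.015. Hsd3b5, a male-specific hydroxysteroid dehydrogenase gene, fell, with differences of -6.59 ± 0.70 (adjusted p = 3.64e-09) in fed p110αhep+/+ mice, -3.41 ± 0.77 (adjusted p = 0.00187) in fed p110αhep-/- mice and -3.86 ± 0.70 (adjusted p = 0.000158) in fasted p110αhep+/+ mice. The fatty acid hydroxylase gene Cyp4a12a fell in all 4 settings, with differences of -2.67 ± 0.34, -1.15 ± 0.37, -1.47 ± 0.34 and -1.22 ± 0.37. The 2 that rose in fasted p110αhep-/- mice were Spink1 (1.16 ± 0.29, adjusted p = 0.00538) and Rarres1 (1.08 ± 0.20, adjusted p = 0.000277). Sult1e1 and Cyp2a4 stand in both the CAR list and the female list. Egfr stands in both the list of CAR and its partners and the male list, and its fall in fed p110αhep+/+ mice counts in each.

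**Figure D4:**
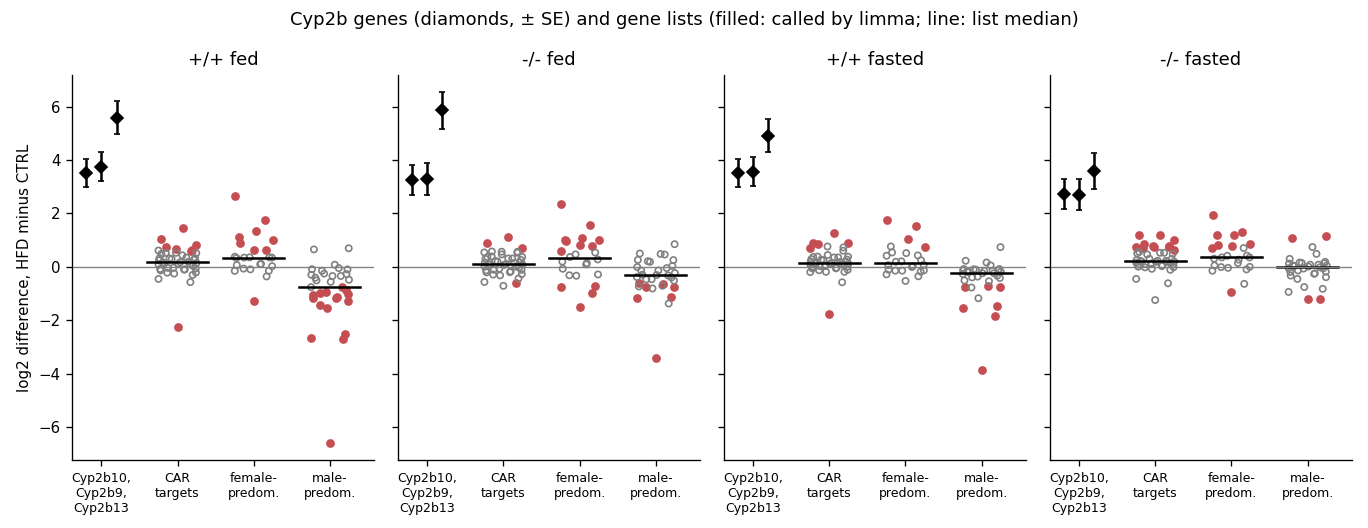
Log2 difference of HFD against CTRL (y axis) for the Cyp2b probes (diamonds, with SE) and for each measured gene of the CAR-target, female-predominant and male-predominant lists (points; filled where called; the line is the list's median) in the 4 settings. The male list has its median at -0.74 in fed p110αhep+/+ mice, while the CAR-target median stays between 0.11 and 0.23.

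Among the neighbours of the members in the Cyp2 cluster of chromosome 7, the largest log2 difference between diets was 1.28. The other Cyp2b genes, Cyp2b19 and Cyp2b23, were above background on at most 1 array and were not measured. Of 8 other Cyp2 genes of the cluster, 0 rose and 1 fell in fed p110αhep+/+ mice, 1 rose and 1 fell in fed p110αhep-/- mice, 0 changed in fasted p110αhep+/+ mice in the limma fit, and 3 rose and 0 fell in fasted p110αhep-/- mice, against the same shares of all genes as above (2.63%, 1.3%, 1.82% and 0.927% higher, and 1.08%, 1.04%, 0.996% and 0.967% lower). In fasted p110αhep-/- mice, Cyp2a22 rose by 1.28 ± 0.14 (adjusted p = 4.2e-08), Cyp2a4 by 1.17 ± 0.17 and Cyp2a5, a coumarin hydroxylase gene, by 0.74 ± 0.13 (adjusted p = 0.000133, lost with median scaling). In fed p110αhep-/- mice Cyp2a22 rose by 0.69 ± 0.14 (adjusted p = 0.00056, lost without HFD replicate 2), and Cyp2f2, a periportal P450 gene, fell by 0.69 ± 0.13 (adjusted p = 0.000133). Cyp2g1 fell by 0.87 ± 0.25 in fed p110αhep+/+ mice (adjusted p = 0.011). Cyp2a12 differed by 0.19 to 0.50 in the 4 settings and did not pass the fold threshold, and Cyp2s1 and Cyp2t4 passed in none.

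Outside the subfamily, the genes whose log2 signal was most like that of Cyp2b10 (probe A) over the 48 mice were Vldlr (r = 0.892), Gm29514 (0.851) and Mdfic (0.837). The same 3 came next for Cyp2b9 (0.891, 0.845 and 0.837). For Cyp2b13 they were Gm29514 (0.895), the organic anion transporter gene Slc22a29 (0.884) and the ectonucleotidase gene Nt5e (0.876). Probe B of Cyp2b10 was followed, after Cyp2b13, by Rcan2 (0.830), Nt5e (0.797) and Hao2 (0.787) among named genes.

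Markers of other cells moved in part with diet. The counts below can be set beside the 2.63%, 1.3%, 1.82% and 0.927% of all genes that rose with HFD in fed p110αhep+/+, fed p110αhep-/-, fasted p110αhep+/+ and fasted p110αhep-/- mice. In the same order, 1.08%, 1.04%, 0.996% and 0.967% of all genes fell. The 10 hepatocyte markers passed the call with HFD in none of the 4 settings. Of 18 pericentral hepatocyte genes, the zone in which Cyp2b genes are mainly expressed, 4, 5, 2 and 6 rose with HFD in fed p110αhep+/+, fed p110αhep-/-, fasted p110αhep+/+ and fasted p110αhep-/- mice, and 1 fell in the last. Slc13a3 rose in all 4, by 1.15 ± 0.13, 0.90 ± 0.15, 1.21 ± 0.14 and 1.59 ± 0.15. The summed pericentral signal ranged from 446593 to 505831 in fed p110αhep+/+ mice on CTRL and from 462135 to 556695 on HFD, so that the diets overlapped. Of 16 periportal genes, 1 rose and 2 fell in fed p110αhep+/+ mice, and 1, Cyp2f2, fell in fed p110αhep-/- mice. The summed stellate cell signal of fed p110αhep+/+ mice went from 23165 to 32898 on CTRL and from 27359 to 47735 on HFD. In fed p110αhep+/+ mice, 2 of 9 Kupffer cell and macrophage genes (Trem2 and Gpnmb), 2 of 7 stellate cell genes (Col1a1 and Col3a1), 2 of 6 measured leukocyte genes (S100a8 and S100a9) and 1 of 5 cholangiocyte genes (Spp1) rose, and none of these lists had a gene past the call in p110αhep-/- mice. Of 4 measured adipocyte genes, 1, 2, 1 and 1 rose with HFD in the 4 settings and none fell, and 2 of 3 erythroid genes rose in fasted p110αhep-/- mice. Car3 rose in fed p110αhep-/- mice (0.78 ± 0.16), and Cfd in all 4 settings (1.76 ± 0.61, 3.24 ± 0.67, 2.69 ± 0.62 and 2.97 ± 0.66) while Adipoq, which defines adipocytes, was not kept as measured. Hepatocyte deletion of p110α lowered Cfd in fed mice, by 5.58 ± 0.64 on CTRL (limma, adjusted p = 1.55e-08) and 4.09 ± 0.64 on HFD (adjusted p = 2.96e-06). Car3 was 0.81 ± 0.15 lower on CTRL (adjusted p = 0.000116). Which cells gave these signals was not tested, so they are not read as a measure of adipocytes. In fasted p110αhep-/- mice, the summed stellate cell signal still went from 22865 to 31320 on CTRL and from 29820 to 36655 on HFD. The part of these markers in the Cyp2b differences was not tested.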

How the data were processed

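Liver RNA of 48 mice, 1 array per mouse, was measured on one-colour Agilent 8x60K arrays, and the authors scanned them with Agilent Feature Extraction 10.10.1.1. The deposited scanner output holds 1 intensity per spot, not normalized, beside the local background and quality flags. A deposited table holds log2 values that the authors filtered, corrected for the washing batch and quantile normalized; it has 32437 probes and served as an alternative.

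Median spot signals were put on the log2 scale without control spots, outlier spots became missing values, and replicate spots were averaged per probe. A probe was kept if at least 5 of 6 arrays in some group had it well above background (30793 of 56605, of which 30762 are in the deposited table). The washing batch was removed with the group means protected, and arrays were quantile normalized. All arrays were fitted in limma 3.58.1 (R 4.3.3, statmod 1.5.0) with 8 group means and array weights, with the Benjamini-Hochberg adjustment taken over every kept probe. Calls used the brightest kept probe of a gene, with 0.05 as the highest adjusted p and a fold change above 1.5. With 1 array per mouse, p-values measure the spread between mice. The depth of an array is not a read count, and precision is limited by how many arrays there are. The script was tested on simulated data.

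The members and the gene lists were chosen with earlier results of these data known. Genes named are the members, Nr1i3, Nr1i2, Rxra, Foxo1, Por, Pik3ca, the chromosome 7 neighbours, at most 4 called genes with the largest rise and 4 with the largest fall per list and comparison, and the 5 genes most like each member; not every gene under this rule is printed, and 1 is not reported here. Symbols are those of the scanner files, and positions of probes are mm9. Alternatives were another signal, background correction, scaling, filters, handling of batch, slide and replicate number, no array weights, 1 nutritional state, the deposited values, the median over probes, other thresholds and leaving out each array. The limits to mice on 1 diet and the omission of fed p110αhep-/- HFD replicate 3 in the correlations were chosen after seeing the data, as were its omission within washing batches, the floor for dim CTRL arrays and the adjustment over the 3 pairs with Nr1i3.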

Additional observations from a re-analysis of the deposited data

Results flagged for a closer look

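Replicate 3 of the fed p110αhep-/- mice on HFD stood apart from the other 5 mice of its group. Its gap to the next mouse was 0.665 of the range of the group for Cyp2b10 (probe A) and 0.656 for Cyp2b9, above the 95% limit of Dixon's test for 6 values. For Cyp2b13 the gap was 0.322 of the range, below that limit. These ratios describe members chosen with their values known, and Cyp2b10 (probe A) and Cyp2b9 gave nearly the same pattern, so they do not count as separate cases. All 4 probes were examined in all 8 groups, 32 sets that are not independent, and chance passes that limit in about 1 in 20 sets. The array of this mouse also had the lowest weight of all arrays, 0.349, and its Nr1i3 signal lay 1.00 below the group mean on the log2 scale. The part of array quality in these values was not tested.

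The HFD difference was compared between genotypes in 73 named genes of the CAR, sex and chromosome 7 lists, most of them named because they had passed the call of diet or genotype. In fed mice it depended on genotype in 8 of the 73, where the call took 1.4% of all genes (limma interaction term, p110αhep-/- minus p110αhep+/+, log2). Among these, 3 are CAR-responsive glutathione transferase genes, Gstm2 (-1.76, adjusted p = 3.88e-05), Gsta2 (-1.75, adjusted p = 0.0257) and Gstm3 (-0.818, adjusted p = 0.0134), which rose with HFD by 1.44, 1.04 and 0.62 in p110αhep+/+ mice and differed by -0.32, -0.71 and -0.20 in p110αhep-/- mice. Cd36 (1.25, adjusted p = 0.0398) rose more in p110αhep-/- mice. Foxa3 (0.705, adjusted p = 0.00567) and the male-predominant genes Mup11 (1.41, adjusted p = 0.0292), Rarres1 (1.43, adjusted p = 0.00211) and Susd4 (1.04, adjusted p = 0.0486) had negative differences in p110αhep+/+ mice and differences from -0.02 to 0.50 in p110αhep-/- mice.

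In fasted mice, such a difference was found in 9 of the 73, where the call took 1.88% of all genes. The chromosome 7 genes Cyp2a22 (0.92, adjusted p = 0.00326), Cyp2a4 (0.929, adjusted p = 0.0177) and Cyp2a5 (0.59, adjusted p = 0.0454), the CAR-responsive genes Cyp1a2 (1.2, adjusted p = 0.000932) and Sult1d1 (0.808, adjusted p = 0.0317) and the male-predominant gene Rarres1 (1.17, adjusted p = 0.00979) had the higher HFD difference in p110αhep-/- mice. Gstm2 (-1.16, adjusted p = 0.00328), Aldh1a7 (-0.831, adjusted p = 0.00421) and Cyp3a44 (-0.59, adjusted p = 0.0442) had the higher one in p110αhep+/+ mice. The Cyp2b members were not among the 73.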

How the results depend on the processing

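None of the 16 HFD differences of the 4 probes turned its direction under the alternatives run. Of the 16 genotype differences 6 turned in at least 1 fit (main values from -0.28 to 0.36), and of the 16 fasting differences 4 (-0.42 to 0.10), none of them called; these counts do not include the values within washing batches, where further fasting and genotype differences turned. No alternative moved the median of all probes by over 0.1 (log2). Of the member differences, 532 values under the alternatives and all 576 without 1 array stayed within the replicate SD of the value given, and 16 moved. The HFD calls of Cyp2b9, Cyp2b13 and Cyp2b10 (probe A) held in every such fit. Where the values moved, the cause was not tested. With the processed signal scaled to the 75th percentile, the HFD difference of Cyp2b13 was 6.57 in fed and 6.64 in fasted p110αhep+/+ mice and 7.48 in fed and 5.04 in fasted p110αhep-/- mice, its genotype difference in fed mice on CTRL -1.26 and its fasting difference in p110αhep+/+ mice on CTRL -1.13. Cyp2b10 probe B then gave HFD differences of 2.13, 3.25, 2.61 and 2.32 (fed p110αhep+/+, fed p110αhep-/-, fasted p110αhep+/+ and fasted p110αhep-/-), genotype differences on CTRL of -1.55 fed and -0.89 fasted, and -0.72 for fasting in p110αhep+/+ mice on CTRL. With normexp its HFD difference in fed p110αhep+/+ mice was 0.53, and the call was lost, as without filter and without HFD replicate 4. The median over both Cyp2b10 probes gave HFD differences of 2.21 (fed p110αhep+/+), 2.32 (fasted p110αhep+/+) and 1.79 (fasted p110αhep-/-).

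CAR targets called with HFD numbered 18, 9, 13 and 18 with no fold threshold and 3, 1, 2 and 3 at a fold over 2 (order as above), 7 in fasted p110αhep-/- mice with median scaling and 2 in fed p110αhep-/- mice without array weights. At a fold over 2, female-predominant genes numbered 5 and 5 in fed mice of both genotypes and 4 in fasted p110αhep-/- mice, and male-predominant genes 3 in fed p110αhep-/- and 4 in fasted p110αhep+/+ mice. Male-predominant genes numbered 11 in fasted p110αhep+/+ mice with the processed signal and with median scaling, and 3 in fed p110αhep-/- mice without filter. Leaving out 1 array gave 5 to 11 CAR targets in fed p110αhep+/+ mice (5 without CTRL replicate 6), 3 to 7 in fed p110αhep-/- mice (7 without HFD replicate 3), 3 to 7 female-predominant genes in fasted p110αhep+/+ mice (7 without CTRL replicate 2), and 2 to 8 (fed; 2 without HFD replicate 5, 4 without HFD replicate 1 or CTRL replicate 1, 2 or 4) and 2 to 4 (fasted; 2 without CTRL replicate 5 or 6 or HFD replicate 3, 5 or 6) male-predominant genes in p110αhep-/- mice. The correlations of Nr1i3 with Cyp2b10, Cyp2b9 and Cyp2b13 missed the threshold within washing batch 1 (0.357, 0.375 and 0.170), within batch 2 (0.513, 0.514 and 0.709, or 0.237, 0.245 and 0.489 without fed p110αhep-/- HFD replicate 3) and on CTRL alone (0.414, 0.429 and 0.358).

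Groups carry replicate numbers 1 to 6 in the labels. Deviations of arrays with the same number had mean correlations of -0.016 to 0.049, and 10 of 48 arrays correlated best with their own number, so the numbers were not taken as pairs. With the replicate block, the HFD differences were 3.39, 3.15, 3.60 and 2.63 for Cyp2b10 (probe A), 3.60, 3.19, 3.65 and 2.61 for Cyp2b9, and 5.42, 5.92, 4.94 and 3.57 for Cyp2b13, and their calls held. Dim signals limit Cyp2b10 probe B throughout and Cyp2b13 on CTRL.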
